A study of Homo sapiens with 20 samples.

Results

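The 9 genes described here encode the signalling chains of the T cell antigen receptor and the proteins that act first behind it. They are CD3D, CD3E, CD3G, CD247, ZAP70, LCK, LAT, LCP2 and CD28, taken from a fixed list of names among 19775 genes on the array. The rule names genes and applies no threshold to measured values. The platform's annotation gives them 20 probe sets, each a group of short probes for 1 transcript, and every probe set was read in all 20 arrays.

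The arrays measured RNA from 5 established lines of human T-ALL, or T-lineage acute lymphoblastic leukaemia: HPB-ALL, T-ALL1, CEM, DND41 and KOPT-K. Every one received either a control peptide or the NBD peptide for 16 h, and each of the 10 combinations of line and peptide has 2 arrays. The NBD peptide copies the NEMO-binding domain and stops IKKγ (NEMO) from joining IKKβ and IKKα, which blocks the canonical NF-kB pathway. By their labels, the control and NBD arrays of a line differ only in the peptide, and all groups share the exposure time. The labels give the dose in conflicting units (micromolar and millimolar), name no genotype, and leave unsaid if paired arrays were grown as separate cultures. The p-values therefore reflect array-to-array spread, possibly technical only.

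In a T cell the antigen receptor has almost no inner part of its own, and it signals through the CD3 chains and the zeta chain. LCK phosphorylates tyrosine motifs (ITAMs) in these chains, ZAP70 docks there and phosphorylates the adaptors LAT and SLP-76, and a complex built on those adaptors starts calcium, Ras and NF-kB signalling. CD28 is the costimulatory receptor that acts beside the antigen receptor. In T-ALL, a cancer of T cell precursors, the inner CD3 and zeta chains are among the markers that define the lineage.

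Promoter windows are shown for the 3 genes whose NBD arrays lay below their control arrays in every line, CD3D, CD247 and LCK. This order held at the probe set with the highest mean, and not at the second probe set of CD247 or LCK. They are RefSeq sequences of build GRCh38.p14, each running from 250 bases before to 50 bases after an annotated start, written 5′ to 3′ on the gene's strand. Capitals mark GGG followed by any 5 bases and CC, a loose form of the NF-kB (kB) motif, and TGGGAA, the core bound by CSL, the DNA-binding partner of Notch, on either strand. CD3D lies at chr11:118342656-118342955 on the minus strand, CD247 at chr1:167518480-167518779 on the minus strand, and the LCK windows at chr1:32251015-32251314 and chr1:32273871-32274170 on the plus strand.
CD3D: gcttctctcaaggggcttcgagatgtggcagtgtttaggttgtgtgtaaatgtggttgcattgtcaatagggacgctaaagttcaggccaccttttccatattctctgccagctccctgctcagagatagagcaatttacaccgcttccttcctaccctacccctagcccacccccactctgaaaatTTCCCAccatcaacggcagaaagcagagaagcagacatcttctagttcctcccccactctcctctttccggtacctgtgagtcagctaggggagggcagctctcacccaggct
CD247: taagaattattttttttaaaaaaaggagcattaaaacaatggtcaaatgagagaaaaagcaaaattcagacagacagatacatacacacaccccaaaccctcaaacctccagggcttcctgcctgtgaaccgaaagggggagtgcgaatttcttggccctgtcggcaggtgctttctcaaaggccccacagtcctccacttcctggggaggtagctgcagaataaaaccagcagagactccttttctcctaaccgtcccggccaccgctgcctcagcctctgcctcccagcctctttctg
LCK, first start: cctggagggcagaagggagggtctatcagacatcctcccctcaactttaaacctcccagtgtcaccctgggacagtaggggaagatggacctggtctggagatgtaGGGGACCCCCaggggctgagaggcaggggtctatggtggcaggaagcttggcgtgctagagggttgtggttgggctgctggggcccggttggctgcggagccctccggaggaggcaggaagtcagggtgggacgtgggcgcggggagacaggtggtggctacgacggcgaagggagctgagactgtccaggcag
LCK, second start: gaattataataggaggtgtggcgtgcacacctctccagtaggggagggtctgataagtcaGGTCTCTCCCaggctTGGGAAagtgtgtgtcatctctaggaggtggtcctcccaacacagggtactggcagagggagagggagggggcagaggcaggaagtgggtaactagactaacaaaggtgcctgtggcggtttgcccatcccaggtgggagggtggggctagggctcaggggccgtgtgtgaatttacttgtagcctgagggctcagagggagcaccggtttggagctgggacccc

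The CD3D window held TGGGAA once, beginning at -63 from the start, and no kB letters. The CD247 window held neither. The first LCK window held the kB letters at -144, and the second held them at -190 together with TGGGAA at -175. No match to one motif overlapped a match to the other. Of the 11 windows found for 7 of the genes (CD3D, CD247, ZAP70, LCK, LAT, LCP2 and CD28), 8 held the kB letters and 6 held TGGGAA. Among all 35116 promoter windows of that length the shares were 58.7% and 24%. A match describes letters only, and no binding was measured.

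The arrays of a group correlated at 0.987 to 0.997 over the tested probe sets, and those of different lines at 0.855 to 0.925. The deposited columns of T-ALL1 and KOPT-K have mean intensities of 386.9 to 396.1 and 7 decimals, while those of the other lines have 341 to 347.7 and 2 decimals, so the sets seem to have been normalized apart, although no source states it. Levels were therefore tested only between lines of the same set. T-ALL1 stood apart in the actin signal, a sign of RNA quality: its control arrays had an actin 3′ minus 5′ signal of 3.16 and 2.05 (log2), its NBD arrays 1.07 and 0.99, and the group means elsewhere were 0.85 to 1.76. The spread between the T-ALL1 control arrays was also the largest, with a typical SD of 0.263 (log2) against 0.119 to 0.176 in the other groups. Results that rest on T-ALL1 are given with these values in mind and without that line.

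All lines carried T cell transcripts beyond the 9 genes. Of CD7, CD2, CD5, TRBC1 and TRAT1, 3 were above the filter level, a log2 value of 5, on every array, and the exceptions were CD2, which averaged 4.19 in DND41, and CD5, which averaged 5.41 there. The summed level of this list ran from 12.65 to 13.86 on control arrays and from 12.39 to 13.63 on NBD arrays (log2). The B cell markers summed to 7.47 to 11.58 on control arrays and 7.63 to 10.5 on NBD arrays. Their top end was CD79A, a B cell receptor chain, which averaged 10.82 in DND41 against 6.53 in CEM and 5.85 in HPB-ALL, while MS4A1 stayed under the filter level on all arrays. Myeloid markers (6.76 to 7.27 on control and 6.74 to 7.4 on NBD arrays), fibroblast and epithelial markers (7.62 to 8.28 and 7.64 to 8.26) and NK cell markers (7.56 to 9.51 and 7.4 to 9.41) covered like ranges with both peptides. CD14, LYZ, MPO, COL1A2, KRT19 and KLRD1 were under the filter level throughout. ITGAM, COL1A1 and NCAM1 reached it on all 20 arrays, as did CD79B and CD22 of the B cell list. NKG7 averaged 9.05 in KOPT-K and 4.84 in HPB-ALL, and KLRF1 5.53 in T-ALL1 and 3.04 to 3.29 elsewhere.

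Levels on control arrays come first, since they show what the lines start from. CD3D, which pairs with CD3E in the receptor, was high in every line, at 12.9 and 12.92 in T-ALL1, 13.88 and 13.89 in KOPT-K, 13.54 and 13.56 in CEM, 14.16 and 14.12 in DND41, and 13.32 and 13.27 in HPB-ALL (log2 intensity). No pair of lines within a set overlapped, and the order was DND41, CEM, HPB-ALL in one set and KOPT-K, T-ALL1 in the other. All these differences passed the test, from 0.25 ± 0.07 (log2, SE, adjusted p = 0.0134) between CEM and HPB-ALL to -0.98 ± 0.07 (adjusted p = 8.12e-08) between T-ALL1 and KOPT-K. The smallest of them, CEM against HPB-ALL, missed the threshold when CEM control 1, CEM control 2 or HPB-ALL control 2 was left out, with adjusted p = 0.0513, 0.0628 and 0.0822.

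CD247, the zeta chain that carries the most ITAMs, and CD3G, which pairs with CD3E as well, followed the same ranking at the top and differed below it. CD247 stood at 12.72 and 12.8 in KOPT-K and 11.1 and 11.15 in T-ALL1, a gap of -1.63 ± 0.07 for T-ALL1 (adjusted p = 2.5e-10). Its dimmer probe set 234462_at gave -0.16 ± 0.1 there (adjusted p = 0.222) and was called in no tested pair of lines. In the other set the representative CD247 probe set was highest in DND41 (11.17 and 11.2), and CEM (10.62 and 10.56) and HPB-ALL (10.56 and 10.55) did not differ beyond their spread (0.04 ± 0.07, adjusted p = 0.719). CD3G was also highest in DND41 within that set, at 11.58 and 11.51, where it exceeded CEM by 0.61 (the test of CEM against DND41 gave -0.61 ± 0.12, adjusted p = 0.00111) and HPB-ALL by 0.41 ± 0.12 (adjusted p = 0.0134). That last call was lost without DND41 control 1 or HPB-ALL control 1 (adjusted p = 0.0787 and 0.119). In the other set CD3G read 10.43 and 10.76 in T-ALL1 and 12.01 and 11.69 in KOPT-K, a difference of -1.26 ± 0.12 (adjusted p = 9.35e-07) that was -0.63 with the actin covariate (adjusted p = 0.0162). CEM (11 and 10.87) and HPB-ALL (11.04 and 11.23) were neighbours for CD3G, and their difference of -0.2 ± 0.12 did not pass (adjusted p = 0.212).

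CD3E, the chain shared by both CD3 dimers, had the most even levels of the 4 receptor chains. Its control arrays read 8.19 and 8.41 in CEM, 7.89 and 7.8 in DND41, and 8.11 and 8.24 in HPB-ALL, and none of these pairs differed by the test. It was lower in T-ALL1 than in KOPT-K by -0.61 ± 0.19 (adjusted p = 0.0138), yet the T-ALL1 control arrays themselves read 7.67 and 8.47. Without the first of them the difference was -0.21 (adjusted p = 0.218), without KOPT-K control 1 it was -0.54 (adjusted p = 0.0845), and with the actin signal as a covariate it turned to 0.48 (adjusted p = 0.149). The CEM against DND41 gap for CD3E, 0.45 ± 0.19 (adjusted p = 0.0746), passed in the fit without the T-ALL1 line (adjusted p = 0.00489), as did DND41 against HPB-ALL (-0.33, adjusted p = 0.0248).

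**Figure D1:**
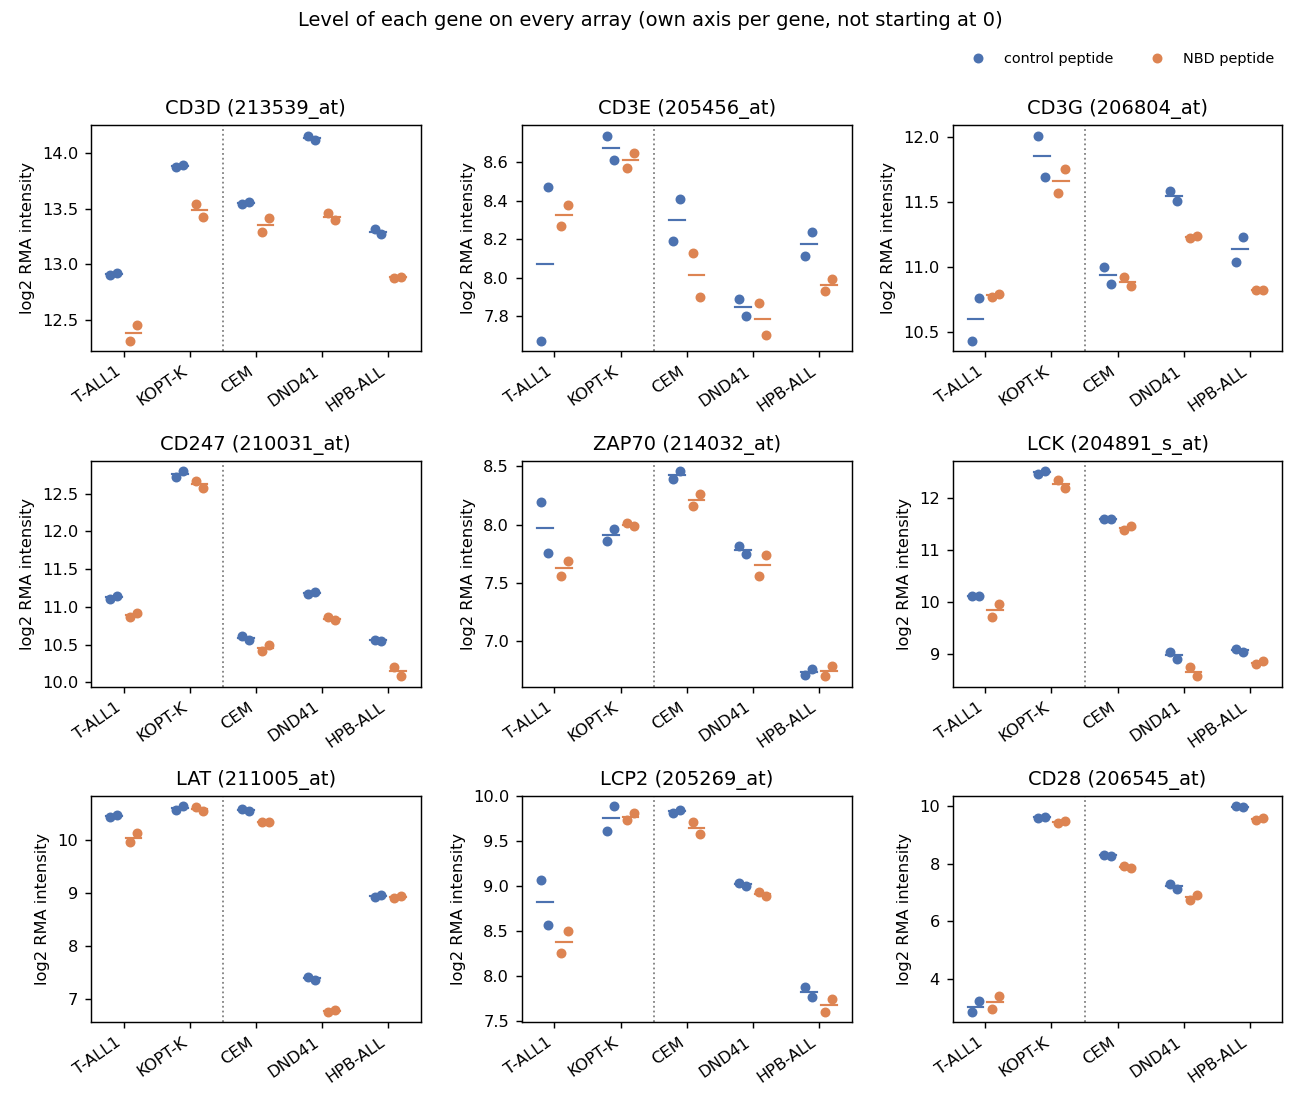
Log2 RMA intensity (vertical axis, its own range for each gene) of the representative probe set of each gene on all 20 arrays, by line; blue points are control peptide arrays, orange points NBD peptide arrays, and short lines group means of 2 arrays. The dotted line parts the sets of columns that seem to have been normalized apart, and CD28 in T-ALL1 sits between 2.88 and 3.44 while KOPT-K lies above 9.

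As the plot of levels by line shows, the kinases, adaptors and CD28 covered a wider range in the set of CEM, DND41 and HPB-ALL, with largest differences of 1.69 (ZAP70) to 3.17 (LAT), than the receptor chains, for which the largest was 0.84 (CD3D). LCK, the kinase that phosphorylates the ITAMs, read 11.6 on both CEM control arrays, 9.03 and 8.9 in DND41, and 9.09 and 9.03 in HPB-ALL. CEM therefore exceeded DND41 by 2.64 ± 0.1 (adjusted p = 3.53e-11) and HPB-ALL by 2.54 ± 0.1 (adjusted p = 5.06e-11), whereas DND41 and HPB-ALL did not differ beyond their spread (-0.1 ± 0.1, adjusted p = 0.471). In the other set T-ALL1 (10.1 and 10.11) lay below KOPT-K (12.46 and 12.52) by -2.38 ± 0.1 (adjusted p = 8.04e-11).

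ZAP70, the kinase that docks on phosphorylated ITAMs, was lowest in HPB-ALL within its set. It read 8.39 and 8.46 in CEM, 7.82 and 7.75 in DND41 and 6.71 and 6.76 in HPB-ALL, so that the 3 lines were all set apart, by 0.64 ± 0.12 (adjusted p = 0.000594) for CEM against DND41 and 1.05 ± 0.12 (adjusted p = 4.8e-06) for DND41 against HPB-ALL. T-ALL1 (8.19 and 7.76) and KOPT-K (7.86 and 7.96) overlapped, with a difference of 0.07 ± 0.12 (adjusted p = 0.666), which turned to -0.15 without T-ALL1 control 1, rose to 0.28 (adjusted p = 0.0271) without T-ALL1 control 2 and turned to -0.49 (adjusted p = 0.0671) with the actin covariate.

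The adaptor LAT, a membrane scaffold phosphorylated by ZAP70, showed the widest range in the CEM, DND41 and HPB-ALL set. Its control arrays read 10.58 and 10.55 in CEM, 8.92 and 8.97 in HPB-ALL, and 7.43 and 7.36 in DND41, so that DND41, the line highest for CD3D, CD3G and CD247, was lowest for LAT. CEM exceeded DND41 by 3.17 ± 0.07 (adjusted p = 2.55e-13), whereas T-ALL1 (10.43 and 10.47) and KOPT-K (10.56 and 10.63) differed by -0.14 ± 0.07, which did not pass (adjusted p = 0.118). At the second LAT probe set, 209881_s_at, that difference was -0.45 ± 0.12 and passed (adjusted p = 0.00524). DND41 against HPB-ALL was -0.75 ± 0.12 there, against -1.55 ± 0.07 at the representative, and both passed. LCP2, which encodes the adaptor SLP-76, fell in order from CEM (9.82 and 9.85) to DND41 (9.04 and 9) to HPB-ALL (7.88 and 7.76), with 2.01 ± 0.14 between the ends (adjusted p = 4.05e-08). T-ALL1 (9.07 and 8.57) lay below KOPT-K (9.62 and 9.89) by -0.93 ± 0.14 for LCP2 (adjusted p = 7.23e-05), a difference of -1.64 with the actin covariate (adjusted p = 8.92e-05) and still called without either T-ALL1 control array.

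The CD28 probe sets disagreed on T-ALL1. At the representative 206545_at all 4 T-ALL1 arrays lay between 2.88 and 3.44, under the filter level of 5, while the KOPT-K control arrays read 9.57 and 9.62, which is at least 24.2-fold above the filter level (adjusted p = 1.05e-13 for the measured difference). The probe set 211861_x_at was also under that level in T-ALL1, at 2.85 to 3.47, whereas 211856_x_at was above it, at 5.25 to 5.81. The suffix of both marks probes that may also bind other transcripts. In the other set HPB-ALL was highest (9.98 and 9.96), CEM intermediate (8.3 and 8.27) and DND41 lowest (7.3 and 7.12), and every pair passed the test, up to -2.76 ± 0.14 for DND41 against HPB-ALL (adjusted p = 1.21e-09). HPB-ALL thus had the lowest ZAP70 and LCP2 levels of its set and the highest CD28 level.

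Over all tested probe sets of the 9 genes, 15 of 19 differed between CEM and DND41, where 36.6% of all 26254 tested probe sets did. Of these 15, 12 were higher in CEM (19.2% of all) and 3 lower (17.4%). CEM against HPB-ALL also gave 15 of 19 (43.9% of all), with 12 higher (22.8%) and 3 lower (21.2%) in CEM. DND41 against HPB-ALL gave 14 of 19 (42.6%), with 9 higher (21.6%) and 5 lower (21%) in DND41. In T-ALL1 against KOPT-K all 15 members called were lower in T-ALL1, where 50.8% of all probe sets differed, 23.4% being lower and 27.4% higher. One LCP2 probe set (244578_at) was not tested, with group means of 3.3 to 4.18.

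After the NBD peptide, no tested probe set of the 9 genes was called higher in the average of the lines, and several were called lower. In the average of the 5 lines with equal weight, 8 of 19 probe sets, from CD3D, CD247, LCK, LAT, LCP2 and CD28, were lower at an adjusted p under 0.05, and 0 were higher. Over all probe sets tested, 4.02% were lower and 2.11% higher. The median difference over the 19 was -0.177 on the log2 scale, against -0.002 over all 26254, and 17 of the 19 were below 0. Because these are bulk RNA samples, fewer cells of a type and less RNA per cell cannot be told apart. The difference rested on the spread between arrays. With the 5 lines as replicates, 0 of 19 passed by limma (0 of all 26254, lowest adjusted p = 0.241), and 10 of 19 were lower and 0 higher at an unadjusted p under 0.05, as were 6.32% and 4.3% of all probe sets.

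**Figure D2:**
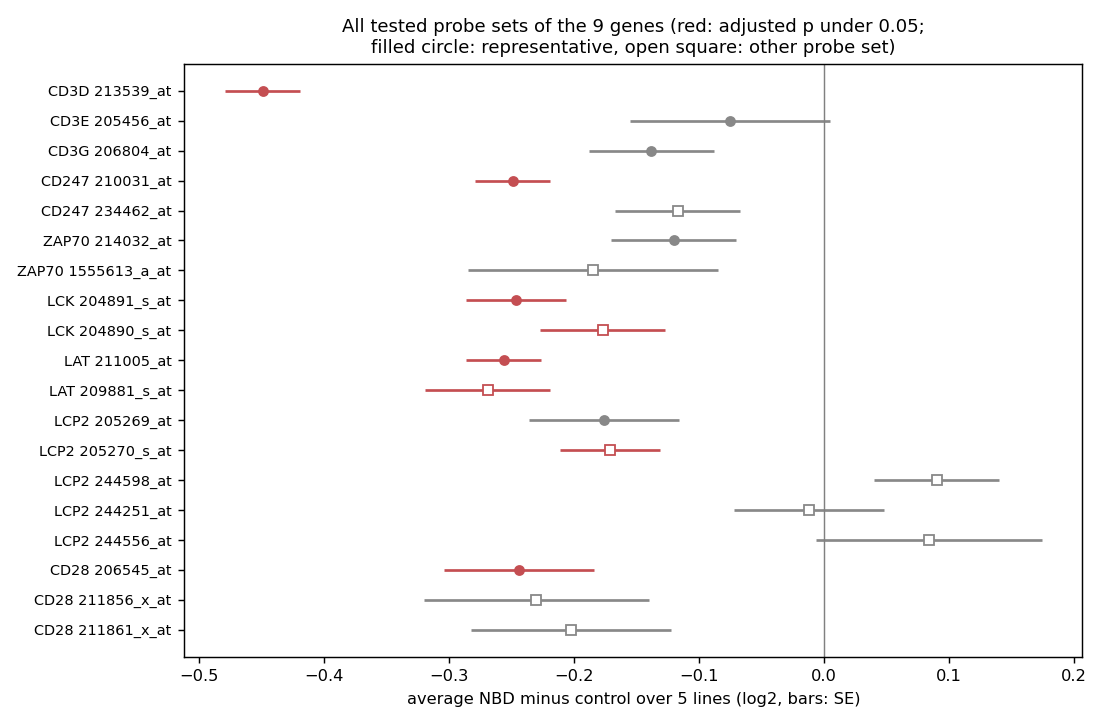
Average NBD minus control difference over the 5 lines (horizontal axis, log2) for the 19 tested probe sets of the 9 genes; bars are standard errors, filled circles representative and open squares other probe sets, and red marks an adjusted p under 0.05. The 8 red probe sets all lie below 0, and CD3D lies lowest at -0.45.

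Of the receptor chains, CD3D fell most. Its NBD arrays read 12.31 and 12.45 in T-ALL1, 13.54 and 13.43 in KOPT-K, 13.29 and 13.42 in CEM, 13.46 and 13.4 in DND41, and 12.88 and 12.89 in HPB-ALL. In every line both NBD arrays lay below both control arrays. The average difference was -0.45 ± 0.03 (log2, SE), or 1.37-fold lower, with an adjusted p of 4.43e-06, and it was -0.46 in the fit of T-ALL1 and KOPT-K alone (adjusted p = 0.0971) and -0.44 in that of the other 3 lines (adjusted p = 0.00104). By line, CD3D fell by 0.72 in DND41 (adjusted p = 0.00071), 0.53 in T-ALL1 (0.00305), 0.41 in HPB-ALL (0.0313) and 0.4 in KOPT-K (0.0229), and measured -0.19 ± 0.07 in CEM, which did not pass (adjusted p = 0.315). The spread of these 5 effects was not called by the F-test of a difference between lines (adjusted p = 0.109).

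CD247 fell too, by less. On NBD arrays the zeta chain read 10.86 and 10.92 in T-ALL1, 12.67 and 12.58 in KOPT-K, 10.42 and 10.5 in CEM, 10.87 and 10.82 in DND41, and 10.21 and 10.08 in HPB-ALL, again below both control arrays in each line. The average was -0.25 ± 0.03 (adjusted p = 0.000731), with 5 of 5 lines below 0, and the fit of T-ALL1 and KOPT-K alone gave -0.18 (adjusted p = 0.338) against -0.29 (0.00877) in the other lines. In single lines it passed in HPB-ALL (-0.41 ± 0.07, adjusted p = 0.0313) and DND41 (-0.34 ± 0.07, adjusted p = 0.0417). The DND41 call was lost in 19 of 30 alternatives, 16 of them fits without 1 array (adjusted p up to 0.301), and the HPB-ALL call in 10 of 30 (adjusted p up to 0.31). The dimmer probe set 234462_at, whose arrays lay between 5.06 and 6.01, measured -0.12 ± 0.05 (adjusted p = 0.157).

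CD3G and CD3E did not pass in the average of 5 lines. CD3G read 11.22 and 11.24 on the NBD arrays of DND41 and 10.82 on both of HPB-ALL, below the controls in both lines, and in T-ALL1 its NBD arrays (10.77 and 10.79) lay above the controls (10.43 and 10.76). Its average was -0.14 ± 0.05 (adjusted p = 0.159). CD3E averaged -0.08 ± 0.08 (adjusted p = 0.677), with the NBD arrays below the controls in CEM (8.13 and 7.9) and HPB-ALL (7.93 and 7.99) and overlapping them in the other lines.

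Both of these results changed with the handling of T-ALL1. With the actin signal as a covariate the average of CD3G was -0.26 (adjusted p = 0.0121) and that of CD3E -0.28 (adjusted p = 0.0263), so that both passed, and CD3G also passed without the T-ALL1 line (-0.22, adjusted p = 0.0376). CD3E without T-ALL1 measured -0.16 (adjusted p = 0.107), and it was 0.095 in T-ALL1 and KOPT-K alone. CD3D stayed at -0.44 with the covariate and -0.43 without T-ALL1, both called. The actin signal differed between the T-ALL1 peptides (2.61 ± 0.78 on control and 1.03 ± 0.05 on NBD arrays, SD, n = 2), and its part in the results was not tested beyond these fits.

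CD3D, CD3E and CD3G are neighbours on chromosome 11, and their changes are set side by side as a description. This comparison was chosen after the values were seen, so no p-value is given for it. Within arrays, the NBD minus control change of CD3D was -0.31 relative to CD3G and -0.20 relative to CD247, with 5 of 5 lines below 0 for both, and -0.37 relative to CD3E, with 4 of 5. Without T-ALL1 the differences were -0.21, -0.18 and -0.27. With the actin covariate the averages stood closer, at -0.44 for CD3D, -0.28 for CD3E, -0.26 for CD3G and -0.25 for CD247. CD3D, CD3E and CD3G each have 1 probe set.

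Of the kinases, LCK fell and ZAP70 did not pass. The LCK probe set 204891_s_at read 9.7 and 9.96 on the NBD arrays of T-ALL1, 12.35 and 12.2 in KOPT-K, 11.38 and 11.46 in CEM, 8.74 and 8.56 in DND41, and 8.79 and 8.86 in HPB-ALL. All lay below the control arrays of their line, and the effects ranged from -0.19 in CEM to -0.32 in DND41 (F-test of a difference between lines, adjusted p = 0.937). The average was -0.25 ± 0.04 (adjusted p = 0.00467), though no single line passed, and the fit of T-ALL1 and KOPT-K alone gave -0.24 (adjusted p = 0.306). The second LCK probe set, 204890_s_at, measured -0.18 ± 0.05 (adjusted p = 0.0443), a call that was lost in 16 of 20 fits that left out 1 array.

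ZAP70 on NBD arrays read 7.56 and 7.69 in T-ALL1, 8.16 and 8.26 in CEM and 7.56 and 7.74 in DND41, all below the controls, and 8.01 and 7.99 in KOPT-K, above them. In HPB-ALL the arrays overlapped (6.7 and 6.79). The average was -0.12 ± 0.05 (adjusted p = 0.209), the actin covariate gave -0.02 and leaving out T-ALL1 -0.06, and it passed only without T-ALL1 control 2 (-0.16, adjusted p = 0.0132). The other ZAP70 probe set, 1555613_a_at, measured -0.18 ± 0.1 (adjusted p = 0.332).

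CD3D, CD247 210031_at and LCK 204891_s_at were the 3 of 19 probe sets with both NBD arrays below both control arrays in all 5 lines. That pattern was held by 0.926% of all probe sets tested. Line by line, the number of the 19 with that order was 16 in CEM (28.6% of all), 13 in DND41 (24.8%), 12 in HPB-ALL (26%), 8 in T-ALL1 (22.2%) and 4 in KOPT-K (20.4%). CEM had the most members in that order and none that passed the test in that line, where the share of all probe sets called lower was 0.419%.

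**Figure D3:**
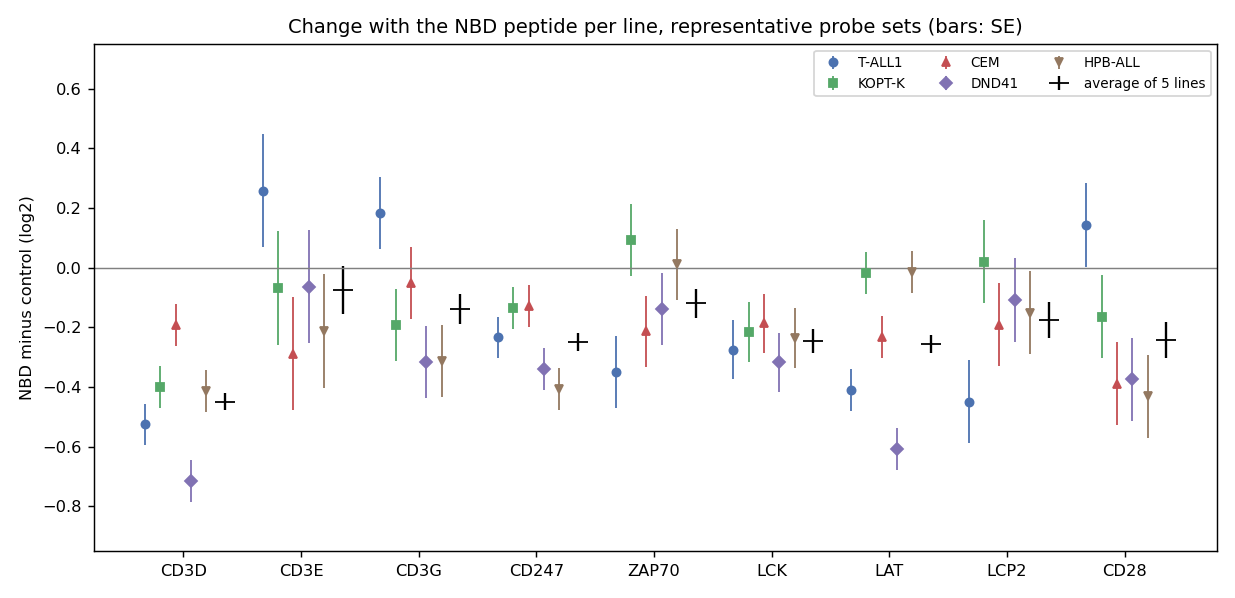
NBD minus control difference (vertical axis, log2) of the representative probe set of each gene in each line, with standard errors, and the average of the 5 lines as a black cross. CD3D, CD247 and LCK lie below 0 in every line, whereas LAT spans -0.61 in DND41 to -0.01 in HPB-ALL.

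Of the adaptors, LAT had the most uneven response, as the plot of effects by line shows. Its NBD arrays read 6.77 and 6.8 in DND41, 9.96 and 10.12 in T-ALL1 and 10.33 and 10.34 in CEM, all below the controls, while those of KOPT-K (10.61 and 10.55) and HPB-ALL (8.91 and 8.95) overlapped theirs. LAT fell by 0.61 in DND41 (adjusted p = 0.00166) and 0.41 in T-ALL1 (adjusted p = 0.00953), and measured -0.23 ± 0.07 in CEM (adjusted p = 0.199), -0.02 ± 0.07 in KOPT-K (0.971) and -0.01 ± 0.07 in HPB-ALL (0.986). The effects differed between lines by the F-test (F = 12.5, adjusted p = 0.0317), which 1.09% of all probe sets passed and no other member did. That call was lost in 14 of 20 fits without 1 array, with an adjusted p of up to 0.108 (without DND41 control 1).

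The average for LAT was -0.26 ± 0.03 (adjusted p = 0.000555), with -0.21 in T-ALL1 and KOPT-K alone (adjusted p = 0.306) and -0.28 in the other lines (0.00548). The second LAT probe set, 209881_s_at, gave the like value of -0.27 ± 0.05 (adjusted p = 0.00853), and fell by 0.61 in DND41 (adjusted p = 0.0268). DND41 thus had the lowest LAT level on control arrays among CEM, DND41 and HPB-ALL, and the largest measured fall of all the lines. The DND41 value of the second probe set did not pass without DND41 control 2 (-0.45, adjusted p = 0.214) or DND41 NBD 2 (-0.48, adjusted p = 0.289).

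For LCP2 the probe sets did not move alike. The representative 205269_at read 8.25 and 8.5 on the NBD arrays of T-ALL1, 9.71 and 9.58 in CEM, 8.93 and 8.89 in DND41 and 7.6 and 7.74 in HPB-ALL, all below the controls, and overlapped them in KOPT-K (9.74 and 9.81). It averaged -0.18 ± 0.06 (adjusted p = 0.121), which passed without T-ALL1 control 2 (-0.23, adjusted p = 0.00906), and was -0.11 without the T-ALL1 line (adjusted p = 0.211) and -0.04 with the actin covariate (adjusted p = 0.751). The probe set 205270_s_at measured -0.17 ± 0.04 and passed (adjusted p = 0.0393), but not in 15 of 20 fits without 1 array, while 244598_at (0.09 ± 0.05), 244251_at (-0.01 ± 0.06) and 244556_at (0.08 ± 0.09) lay near 0.

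CD28, the costimulatory receptor, was lower on average at its brightest probe set. Its NBD arrays read 7.93 and 7.86 in CEM, 6.74 and 6.93 in DND41, 9.5 and 9.57 in HPB-ALL and 9.39 and 9.47 in KOPT-K, below the controls in each of these lines, while T-ALL1 (2.96 and 3.44) was under the filter level with both peptides at this probe set. The average over 5 lines was -0.24 ± 0.06 (adjusted p = 0.038), and that call was lost in 15 of 20 fits without 1 array. Without the T-ALL1 line the average was -0.34 (adjusted p = 0.00116), and it was -0.40 in CEM, DND41 and HPB-ALL alone (adjusted p = 0.00623). The probe sets 211856_x_at (-0.23 ± 0.09) and 211861_x_at (-0.2 ± 0.08) carry a suffix for probes that may also bind other transcripts. They did not pass in the average of 5 lines and passed without T-ALL1 (-0.36 and -0.30, adjusted p = 0.0427 and 0.0272). At 211861_x_at the control and NBD means of CEM (4.93 and 4.37) and DND41 (3.78 and 3.91) were also under the filter level. Its effect was -0.74 in HPB-ALL and -0.02 in KOPT-K.

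The single-line tests called few members, and none higher. In DND41, 4 of 19 were lower (CD3D, CD247 and both LAT probe sets), where 0.827% of all were lower and 0.377% higher. HPB-ALL had 2 (CD3D and CD247), against 0.305% of all lower and 0.0686% higher. T-ALL1 had 2 as well (CD3D and LAT), against 2.85% lower and 2.83% higher. KOPT-K had 1 (CD3D), against 0.187% lower and 0.644% higher, and CEM had 0 by limma, against 0.419% lower and 0.213% higher. With 2 arrays a side, a missing call in a single line does not show that a gene kept its level. Without T-ALL1 control 2, the control side of T-ALL1 is 1 array, the one with the actin signal of 3.16. Effect sizes in that fit are given only for probe sets selected by its own test. They were -0.51 for CD3D, -0.39 for LAT, -0.70 for LCP2 205269_at, and -0.56 and -0.80 for ZAP70. Those above 0 were 0.66 for CD3E and 0.49 for CD28 211861_x_at, which was under the filter level in T-ALL1. LAT measured -0.33 in T-ALL1 without T-ALL1 NBD 1, and the fit with the actin covariate left 0 T-ALL1 calls. The HPB-ALL calls were lost without any 1 of the HPB-ALL arrays or of the CEM or DND41 control arrays, and the KOPT-K call without any 1 of the KOPT-K arrays.

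Other genes of the pathway were read from a list of 51 receptor, coreceptor, kinase, phosphatase and adaptor genes, of which 47 were tested. The list was chosen with earlier results of these data known. With NBD, 8 were lower and 1 was higher on average by the representative probe set, where 4.02% and 2.11% of all probe sets were. In the fit with 1 probe set per gene, 1157 of 13822 were called in either direction. The median difference of the list was -0.077 against -0.002 over all probe sets. Those lower included TRBC1, the constant part of the receptor's beta chain (-0.29 ± 0.04, adjusted p = 0.00048), and TRAT1, an adaptor that joins the receptor complex (-0.26 ± 0.06, adjusted p = 0.0196). Both are also on the T cell marker list. The phosphatase PTPN6 (SHP-1), a brake on receptor signalling, fell by 0.33 (adjusted p = 0.00375), UBASH3B, another inhibitory phosphatase, by 0.28 (0.0228), and SLA and SLA2, adaptors that lower receptor levels, by 0.28 each (0.00176 and 0.0194). ICOS, a costimulatory receptor related to CD28, fell by 0.28 (adjusted p = 0.0108). PTPN22, a phosphatase that acts on LCK and ZAP70, was higher by 0.26 ± 0.04 (adjusted p = 0.00158), with 3 of 5 lines above 0. By their representative probe sets, the genes that fell thus include parts of the receptor, a costimulatory receptor and inhibitors of its signal. Other tested probe sets repeated only some of these calls. TRBC1 passed again (-0.3 and -0.39, adjusted p = 0.00143 and 4.47e-05). SLA (-0.11, adjusted p = 0.112) and SLA2 (-0.07, adjusted p = 0.695) did not. For UBASH3B a value of -0.21 passed (adjusted p = 0.0194), and -0.24, -0.01 and 0.06 did not. For PTPN22 a value of 0.39 passed (adjusted p = 0.00504), and 0.16 did not (adjusted p = 0.223). In single lines the list had 3 lower and 0 higher in T-ALL1 (2.85% and 2.83% of all probe sets), 3 and 0 in CEM (0.419% and 0.213%) and 2 and 0 in HPB-ALL (0.305% and 0.0686%). The order turned in DND41, with 1 lower and 2 higher (0.827% and 0.377%), and in KOPT-K, with 0 lower and 1 higher (0.187% and 0.644%).

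Across the 20 arrays, with each gene centred within its set of columns, the members' patterns mostly reflected differences between lines, since arrays of a line share their source. CD3G and CD247 ran together most closely (Pearson r = 0.94), followed by CD3D and CD247 (0.92), ZAP70 and LCP2 (0.90) and CD3D and CD3G (0.83), and LAT correlated at -0.28 with CD3G, -0.15 with CD247, -0.1 with CD3D and 0.49 with CD3E. Among 13821 other genes, those most like each member were NOTCH1 (0.968) and SASH3 (0.949) for CD3D, SPN (0.933) and LMNB1 (0.882) for CD3E, TMEM19 (0.968) and HLA-F (0.952) for CD3G, and PSMB10 (0.982) and RNASET2 (0.979) for CD247. For the kinases and adaptors they were TBC1D10C and PLEKHO1 (both 0.975) for ZAP70, MYT1L and BNIP3 (both 0.992) for LCK, LINC01215 (0.986) and NINJ2 (0.98) for LAT, and UBASH3A (0.987) and ARHGAP45 (0.983) for LCP2. CD28 was most like SERPINB1 (0.996) and CLGN (0.99). With 5 lines behind the 20 points, these values are a description.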

How the data were processed

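Gene expression was measured on 20 Affymetrix U133 Plus 2.0 arrays. Per the labels' protocols, a silica-column kit gave the RNA, of which 20 ng went through repeated amplification and biotin labelling. The deposited values are linear intensities made by the authors with RMA, per the submitters' processing notes, with no version given. Here log2 was taken, without a pseudocount. Of 54675 probe sets, 41091 name 1 gene in the platform's probe table, and 26254 of these reached the median of all values (intensity 31.96, log2 5) on at least 2 arrays and were tested. Precision is limited by the number of arrays.

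Tests used limma 3.58.1 in R 4.3.3 with 1 mean per group and a shared spread (10 residual and 3.43 prior degrees of freedom), Benjamini-Hochberg adjustment over all tested probe sets and a threshold of 0.05. The average effect weights the 5 lines equally. A moderated F-test compared the effects between lines, and another fit took lines as replicates (4 residual degrees of freedom). The probe set with the highest mean represents a gene. All members are named with all probe sets. From the pathway list up to 8 genes past the threshold are named by size, and for each member the 2 genes most correlated with it. Members and lists were chosen with earlier results of these data known. The fits were tested on simulated data with known changes. The alternatives were quantile normalization, median centring, no filter, a pseudocount of 16, 1 probe set per gene, a trended robust prior, the actin covariate, a replicate block, and fits without an array, a line or a set of columns. The fit without T-ALL1 for single-line, F and level results was chosen after seeing the data.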

Additional observations from a re-analysis of the deposited data

Results flagged for a closer look

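The NBD effect on LAT (211005_at) differed between the 5 lines by the moderated F-test across all probe sets (adjusted p = 0.0317). Both NBD arrays lay below both control arrays in DND41, T-ALL1 and CEM, and the arrays overlapped in KOPT-K and HPB-ALL. The second LAT probe set, 209881_s_at, did not pass the same test (adjusted p = 0.191).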

How the results depend on the processing

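The average calls of CD3D, CD247, LCK 204891_s_at and LAT 211005_at held in 35 of 36 alternatives each and were lost in the fit of T-ALL1 and KOPT-K alone, which has fewer arrays. The count of 8 probe sets changed on average was 5 with no filter, 5 with 1 probe set per gene (9 tested), 5 without the CEM line, 4 without DND41, 5 without HPB-ALL and 0 for T-ALL1 with KOPT-K alone. It was 5 to 10 without 1 array, and 5 without T-ALL1 NBD 1, DND41 control 1, either KOPT-K NBD array or any CEM or HPB-ALL array. The count in T-ALL1 (2) was 6 with a trended robust prior and 0 with the actin covariate. It also changed without T-ALL1 control 2 or T-ALL1 NBD 1, fits that leave 1 array in a group. That in KOPT-K (1) was 0 with no filter and 0 to 1 without 1 array, that in DND41 (4) was 2 to 4 (2 without DND41 control 2 or NBD 2), and that in HPB-ALL (2) was 0 with no filter, 4 with a pseudocount of 16, 4 without the T-ALL1 line and 0 to 3 without 1 array. The CEM count and the count with lines as replicates stayed at 0 in all alternatives. Level counts with 1 probe set per gene, which tests 9 members, were 8 for CEM against DND41, 6 for CEM against HPB-ALL, 7 for DND41 against HPB-ALL and 7 for T-ALL1 against KOPT-K. The F-test count (1) was 0 with no filter, 2 with the pseudocount, 2 with the trended prior and 0 to 5 without 1 array.

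Deviations of arrays with the same replicate number correlated at -0.28 in T-ALL1, -0.06 in CEM, -0.37 in KOPT-K, 0.21 in DND41 and -0.09 in HPB-ALL. With 1 such difference per peptide and line, these values cannot show if the arrays were paired. With the replicate block the counts were 5 on average, 1 in T-ALL1, 0 in KOPT-K, 1 in DND41, 0 in HPB-ALL and 0 by the F-test.

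Some values changed sign, 1 of them a called difference (CD3E, T-ALL1 against KOPT-K). CD3E averaged -0.155 to 0.005 without 1 array and 0.095 in T-ALL1 with KOPT-K alone, ZAP70 1555613_a_at 0.02 with the actin covariate, LCP2 244598_at -0.014 in CEM, DND41 and HPB-ALL alone, and LCP2 244556_at -0.006 without DND41 and -0.121 for T-ALL1 with KOPT-K alone. LCP2 244251_at was 0.042, 0.023 and 0.011 without CEM, DND41 and HPB-ALL, -0.041 to 0.018 without 1 array and 0.211 in T-ALL1 with KOPT-K alone, and CD28 211856_x_at and 211861_x_at were 0.117 and 0.079 for T-ALL1 with KOPT-K alone. T-ALL1 against KOPT-K turned to 0.477 for CD3E and -0.488 for ZAP70 with the actin covariate, and ZAP70 ranged from -0.147 to 0.283 without 1 array. LAT 209881_s_at lost its average call without DND41 (adjusted p = 0.051). The cause of these changes was not tested. In all, 1807 values of single probe sets kept direction and side of the threshold, 152 lost their call, 23 gained one and 22 changed sign.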
